A study of Mus musculus with 8 samples.

Results

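Lysosomal hydrolases and lysosomal membrane proteins were followed in the forebrain of aged amyloid mice. The set holds 38 genes, chosen by name as lysosomal enzymes, membrane proteins, activators and regulators, with the cathepsins and the vacuolar proton pump left out. All 38 were found in the deposited count table of 56748 genes, and all 38 were abundant enough to be among the 21588 genes tested. The samples were 4 libraries of TgCRND8 transgenic mice (Tg) and 4 of non-transgenic littermates (NTg), all aged 18 months, and no other treatment is named in the labels. TgCRND8 mice overexpress a human amyloid precursor protein with familial Alzheimer mutations, driven by the hamster prion protein gene promoter, and deposit amyloid plaques. The RNA came from pulverised frozen tissue with all its cell types, so a difference can reflect the number of cells of a type or the RNA per cell, and these cannot be told apart.

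The lysosome is the acidic compartment in which cells break down lipids, sugars, proteins and what they have taken up from outside. Its soluble hydrolases are tagged with mannose 6-phosphate in the Golgi, sorted to the compartment and activated there, and each removes 1 kind of bond, so that loss of a single enzyme leads to storage of its substrate. The transcription factors TFEB and TFE3 can drive many lysosomal genes together through an E-box element in their promoters. Microglia, the phagocytes of the brain, are rich in lysosomes, and neurons, astrocytes and oligodendrocytes use the same machinery.

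The promoters are shown first because that element is what TFEB and TFE3 are known to bind. Windows from 250 bases before to 50 bases after each transcription start were taken from RefSeq on the mouse build GRCm38.p6, and 33 of the 38 genes had at least 1 window. Asah1, Galns, Hgsnat, Aga and Npc1 had none. The letters TCACGTG, or CACGTGA on the other strand, lay in a window of 11 of the 33 genes (33.3%) and of 4.29% of all 27025 genes with a window. The 6-letter core CACGTG alone, which lies within that motif and reads the same on both strands, was held by the same 11 genes and by 8.09% of all genes. The full 10-letter palindrome, CACGTG preceded by GT and followed by AC, was found in 1 of the 33 genes, Cln3, and in 0.37% of all genes. The stretches below end at the last base before the start and are written 5′ to 3′ on the gene's strand, with the matched letters in capitals. Lgmn, Naglu, Sgsh and Glb1 are the motif holders whose RNA was higher in Tg at an unadjusted p under 0.05. Lamp1 has the most copies, Cln3 the full palindrome, and Hexa and Gusb, with the smallest p-values of the set, have no copy.
Lgmn (chr12:102439093-102439192, minus strand): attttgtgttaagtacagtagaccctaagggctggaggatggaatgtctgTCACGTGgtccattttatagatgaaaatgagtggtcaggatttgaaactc
Naglu (chr11:101069994-101070093, plus strand): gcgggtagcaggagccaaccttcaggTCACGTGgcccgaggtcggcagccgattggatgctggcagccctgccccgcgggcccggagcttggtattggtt
Sgsh (chr11:119355511-119355610, minus strand): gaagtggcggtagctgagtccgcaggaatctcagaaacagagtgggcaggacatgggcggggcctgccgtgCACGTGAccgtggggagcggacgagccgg
Glb1 (chr9:114400978-114401077, plus strand): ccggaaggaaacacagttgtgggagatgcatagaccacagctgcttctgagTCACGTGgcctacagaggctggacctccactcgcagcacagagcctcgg
Lamp1 (chr8:13159061-13159160, plus strand): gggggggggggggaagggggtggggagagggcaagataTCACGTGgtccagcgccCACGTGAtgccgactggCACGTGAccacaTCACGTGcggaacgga
Cln3 (chr7:126583237-126583395, minus strand): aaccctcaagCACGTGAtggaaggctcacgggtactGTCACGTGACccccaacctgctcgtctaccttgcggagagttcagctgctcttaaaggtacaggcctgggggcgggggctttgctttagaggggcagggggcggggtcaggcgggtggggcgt
Hexa (chr9:59539440-59539539, plus strand): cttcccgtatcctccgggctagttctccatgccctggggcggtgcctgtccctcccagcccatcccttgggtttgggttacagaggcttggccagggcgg
Gusb (chr5:130003050-130003149, minus strand): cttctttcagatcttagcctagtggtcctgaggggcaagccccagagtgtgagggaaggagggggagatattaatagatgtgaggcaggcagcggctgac
In Lamp1 the 4 copies lie close before the start, the farthest with its CACGTG core at position -61. Lgmn and Cln3 each have a further RefSeq start whose window holds no copy. A match describes the letters only and shows neither binding nor use of the element.

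The libraries held 57129090 to 65242741 counts. App, to whose counts the transgene can contribute, was at 1390.3 to 1623 CPM (the standard depth-normalised count, here on TMM-scaled library sizes) in NTg and at 2532 to 2979.8 CPM in Tg, above every NTg library in all 4. Summed over 12 microglial markers, Tg replicate 1 was at 436 CPM, within the 313 to 437 CPM of the NTg libraries, and Tg replicates 2 to 4 were at 659 to 714 CPM. Tg replicate 1 also stood apart in forebrain markers, at 110.2 CPM where the other 7 libraries had 158 to 190.0 CPM. Its red blood cell transcripts were at 3003 CPM, against 448 to 732 CPM in Tg replicates 2 to 4 and 1282 to 3271 CPM in NTg. The 5 markers chosen for cerebellum summed to 196 to 526 CPM in NTg against 336 to 497 in Tg. NTg replicate 4 had the highest cerebellar and red blood cell sums of all libraries, 526 and 3271 CPM. Chi-square per degree of freedom, larger where 2 libraries differ more, was 39.4 to 48.9 between NTg replicate 4 and the other NTg libraries. Among NTg replicates 1 to 3 it was 10.9 to 20.1. Between Tg replicate 1 and the other Tg libraries it was 31.0 to 41.7, and among Tg replicates 2 to 4 it was 22.5 to 24.5. Single-gene values without Tg replicate 1 are given for the genes called without it and for Hgsnat, Gaa and Galns. Of the 38 genes, 13 share annotated exon bases with another gene, among them Hexa, Glb1, Arsb, Idua, Sgsh, Lamp1, Cln3, Grn, Ppt1 and Npc1. The library kit does not mark strand, so reads from such bases cannot be assigned to either gene with certainty. The overlapping genes with the most counts were Cap1 (Ppt1), Fam171a2 (Grn), Dgkq (Idua) and Rmc1 (Npc1). Their mean counts per library were 12773, 2947, 1986 and 1626. Tmem202, which overlaps Hexa, had 107.8, and Card14, which overlaps Sgsh, 25.8.

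As a set, the lysosomal genes stood slightly higher in Tg. They were chosen with earlier results of these data known, so the shares below describe the set and do not test it. Of the 38 genes, 31 had a fold change above 1, where 49.2% of all genes tested did, and the median log2 fold change was 0.10, against -0.0024 for all genes. At an unadjusted p under 0.05 (quasi-likelihood test of edgeR), 13 of the 38 were higher, where 4.68% of all genes were, and 1 was lower, where 2.68% were. After adjustment over all genes tested edgeR called 0 of the 38 at a false discovery rate of 0.05, where it called 0.0139% of all genes, and the smallest adjusted p in the set was 0.107. Limma-voom likewise called 0, with 13 higher and 1 lower at an unadjusted p under 0.05. DESeq2 called 6 of the 38 higher, where it called 1.33% of all genes higher, and 0 lower (0.301% of all genes). Those 6 were Hexa, Gusb, Man2b1, Lgmn, Npc2 and Grn. Without Tg replicate 1, edgeR called these 6 with Naglu and Tpp1, 8 genes in all, where it called 1.26% of all genes higher, and called 0 lower (0.174% of all genes). Tg replicate 1 is the lowest Tg library for all 8, so leaving it out by itself raises these differences. The 8 calls are therefore not separate support for a difference. Without NTg replicate 1, edgeR called 0 of the 38 and 16 of all genes. The 4 Tg libraries all lay above the 4 NTg libraries for 5 genes (2.62% of all genes) and all below for 1 (1.58% of all genes).

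**Figure D1:**
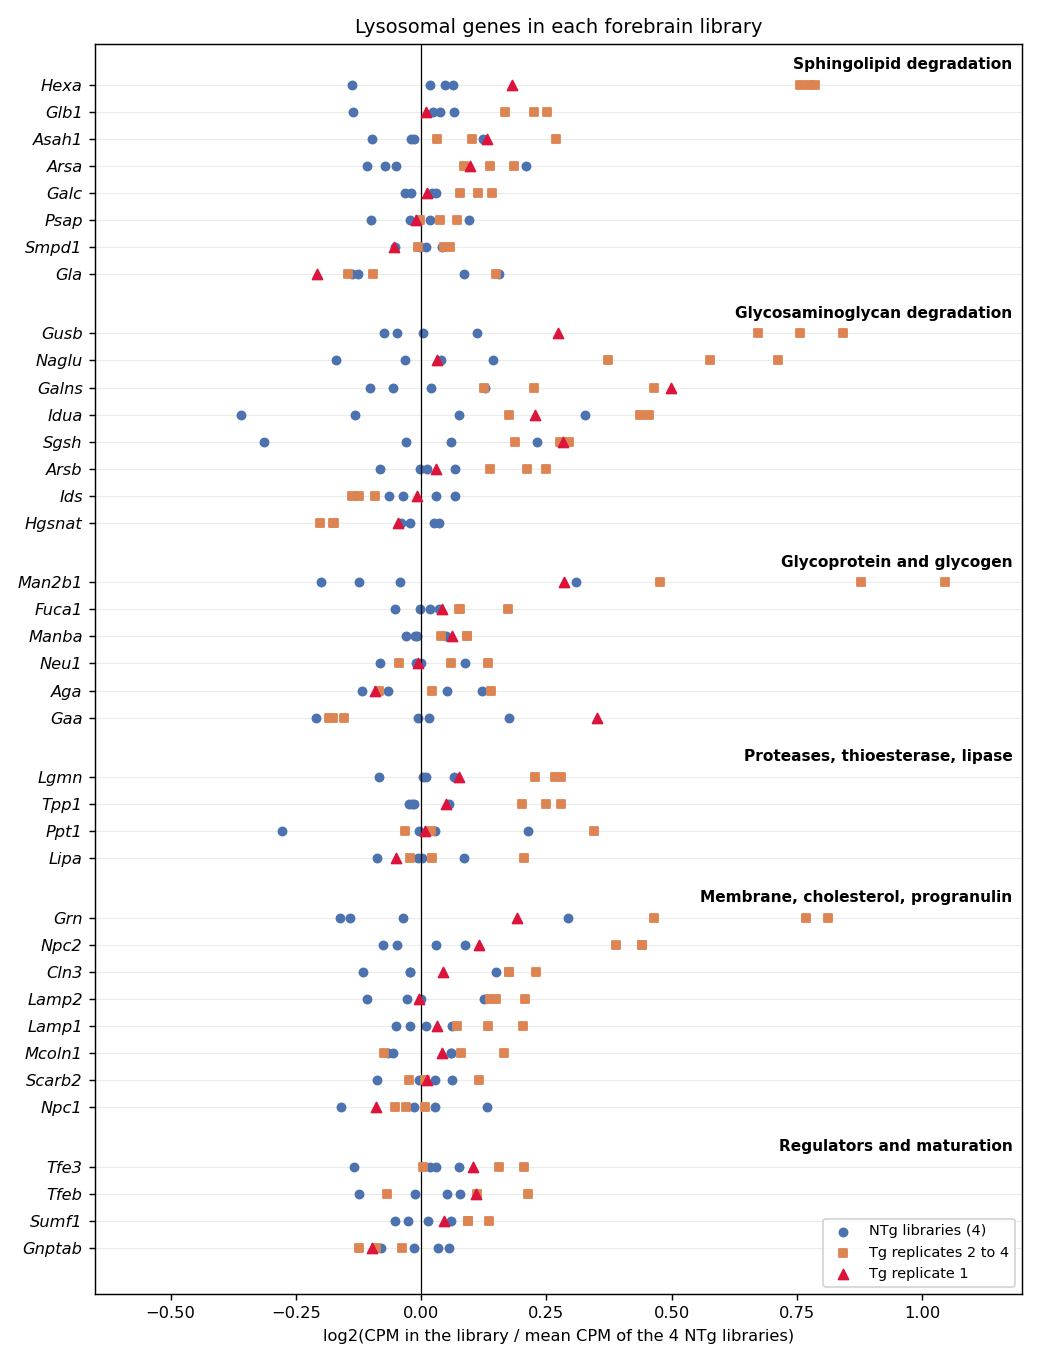
Each point is 1 library, placed at the log2 ratio of its CPM to the mean CPM of the 4 NTg libraries; genes are grouped by role and ordered by fold change. In Hexa, Gusb, Man2b1 and Grn, Tg replicates 2 to 4 (squares) lie far to the right, while Tg replicate 1 (triangle) lies near or within the NTg libraries (circles); most other genes stay close to the NTg mean.

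Sphingolipid degradation was led by Hexa, which encodes the alpha subunit of beta-hexosaminidase, the enzyme that trims GM2 ganglioside. Hexa stood at 51.7, 51.1, 50.0 and 44.9 CPM in NTg replicates 1 to 4 and at 56.1, 83.5, 85.2 and 84.5 CPM in Tg replicates 1 to 4. All Tg libraries were above all NTg libraries, with Tg replicate 1 close to them and the other 3 nearly level with each other. Its fold change was 1.56 (log2 0.65, SE 0.12; edgeR adjusted p = 0.121, DESeq2 adjusted p = 0.000175), and without Tg replicate 1 log2 0.77 (SE 0.06; edgeR adjusted p = 0.000515). Glb1, the beta-galactosidase of GM1 ganglioside, was at 21.2, 20.7, 20.6 and 18.4 CPM in NTg and at 20.3, 24.1, 22.7 and 23.6 CPM in Tg. Only Tg replicate 1 overlapped the NTg libraries (log2 fold change 0.17, SE 0.07, edgeR unadjusted p = 0.0381 and adjusted p = 0.62).

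The other genes of this class were not called. Psap, the precursor of the saposins that present sphingolipids to their hydrolases, was at 1514, 1435, 1396 and 1322 CPM in NTg and 1407, 1454, 1414 and 1489.7 CPM in Tg, with full overlap. Its log2 fold change was 0.02 (SE 0.05, edgeR adjusted p = 0.973). Smpd1, acid sphingomyelinase, averaged 90.9 ± 2.45 CPM in NTg against 91.6 ± 3.22 in Tg (SD, n = 4). Galc, which splits the myelin lipid galactosylceramide, averaged 30.7 ± 0.651 and 32.6 ± 1.26 CPM, and Arsa, which removes sulfate from sulfatide, 33.6 ± 3.52 and 36.7 ± 1.15 CPM. Asah1, acid ceramidase, averaged 60.0 ± 3.88 CPM in NTg against 66.0 ± 4.61 in Tg. Gla, the alpha-galactosidase of globosides, was the member of the class with the lower mean in Tg, 16.0 ± 1.65 against 15.2 ± 1.71 CPM. None of these 6 genes passed edgeR at an unadjusted p under 0.05 or DESeq2 after adjustment. In the class as a whole 7 of 8 were higher, 2 of them at an unadjusted p under 0.05, with a median log2 fold change of 0.11.

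Glycosaminoglycan degradation had the largest share of genes at an unadjusted edgeR p under 0.05, 6 of 8 higher and 1 lower. Among all genes, 4.68% were higher and 2.68% lower at that p. By DESeq2 calls this class did not lead, with 1 of 8 genes (Gusb). DESeq2 called 2 of 8 among membrane proteins, cholesterol export and progranulin, and 1 of 4 among proteases and lipid-cleaving enzymes. The class median was a log2 fold change of 0.29. Gusb, beta-glucuronidase, was at 16.4, 17.0, 16.1 and 18.3 CPM in NTg and at 20.5, 30.4, 27.0 and 28.7 CPM in Tg. The groups did not overlap, although Tg replicate 1 was nearer to NTg than to the other Tg libraries. The fold change was 1.57 (log2 0.65, SE 0.11; edgeR adjusted p = 0.107, DESeq2 adjusted p = 3.26e-05), and without Tg replicate 1 log2 0.76 (SE 0.07; edgeR adjusted p = 0.00106). Naglu, an N-acetylglucosaminidase of heparan sulfate breakdown, was at 9.23, 8.17, 7.43 and 8.59 CPM in NTg and 8.54, 13.7, 10.8 and 12.5 CPM in Tg. Tg replicate 1 lay inside the NTg range and the other 3 above it (log2 fold change 0.44, SE 0.14, edgeR adjusted p = 0.371, DESeq2 adjusted p = 0.115). Without that library the log2 fold change was 0.56 (SE 0.11, edgeR adjusted p = 0.0411).

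Further enzymes of this class had smaller differences and were not called by edgeR or DESeq2. Galns, a sulfatase of keratan and chondroitin sulfate, was at 6.16, 5.66, 5.85 and 6.63 CPM in NTg and 8.59, 7.10, 6.62 and 8.38 CPM in Tg. Here Tg replicate 1 was the highest library, and Tg replicate 3 fell just below the highest NTg library (log2 fold change 0.34, SE 0.11, edgeR adjusted p = 0.382). Without Tg replicate 1 the log2 fold change was 0.28 (SE 0.11, edgeR adjusted p = 0.435). Arsb, the sulfatase of dermatan sulfate, was at 86.6, 85.7, 90.0 and 81.2 CPM in NTg and 87.7, 99.4, 94.5 and 102 CPM in Tg, again with Tg replicate 1 alone inside the NTg range (log2 fold change 0.16, SE 0.06, edgeR adjusted p = 0.491). Idua, which removes iduronic acid, was at 18.2, 11.3, 15.3 and 13.3 CPM in NTg and 17.0, 19.7, 16.4 and 19.9 CPM in Tg. Its NTg libraries were widely spread and NTg replicate 1 lay among the Tg libraries (log2 fold change 0.33, SE 0.14, edgeR adjusted p = 0.62). Sgsh, heparan N-sulfatase, averaged 8.53 ± 1.31 CPM in NTg against 10.2 ± 0.344 in Tg (SD, n = 4; edgeR adjusted p = 0.62). Idua shares exon bases with Slc26a1 and Dgkq, and Sgsh with Card14.

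Hgsnat went the other way. It encodes the membrane acetyltransferase that acts between Sgsh and Naglu in heparan sulfate breakdown, and it was at 55.6, 56.3, 58.2 and 58.6 CPM in NTg and 55.3, 50.7, 49.7 and 50.6 CPM in Tg. All Tg libraries lay below all NTg libraries, Tg replicate 1 by a small margin. The log2 fold change was -0.15 (SE 0.05; edgeR unadjusted p = 0.0109 and adjusted p = 0.382, DESeq2 adjusted p = 0.144), and -0.18 without Tg replicate 1 (edgeR adjusted p = 0.12). Ids, iduronate 2-sulfatase, also had the lower mean in Tg, at 465 ± 19.4 CPM in NTg against 437 ± 17.9 in Tg (SD, n = 4; edgeR adjusted p = 0.79). Successive enzymes of heparan sulfate breakdown thus had fold changes of both signs. Hgsnat was the 1 gene of the 38 lower at an unadjusted edgeR p under 0.05. The share of all genes tested was similar, 2.68%.

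**Figure D2:**
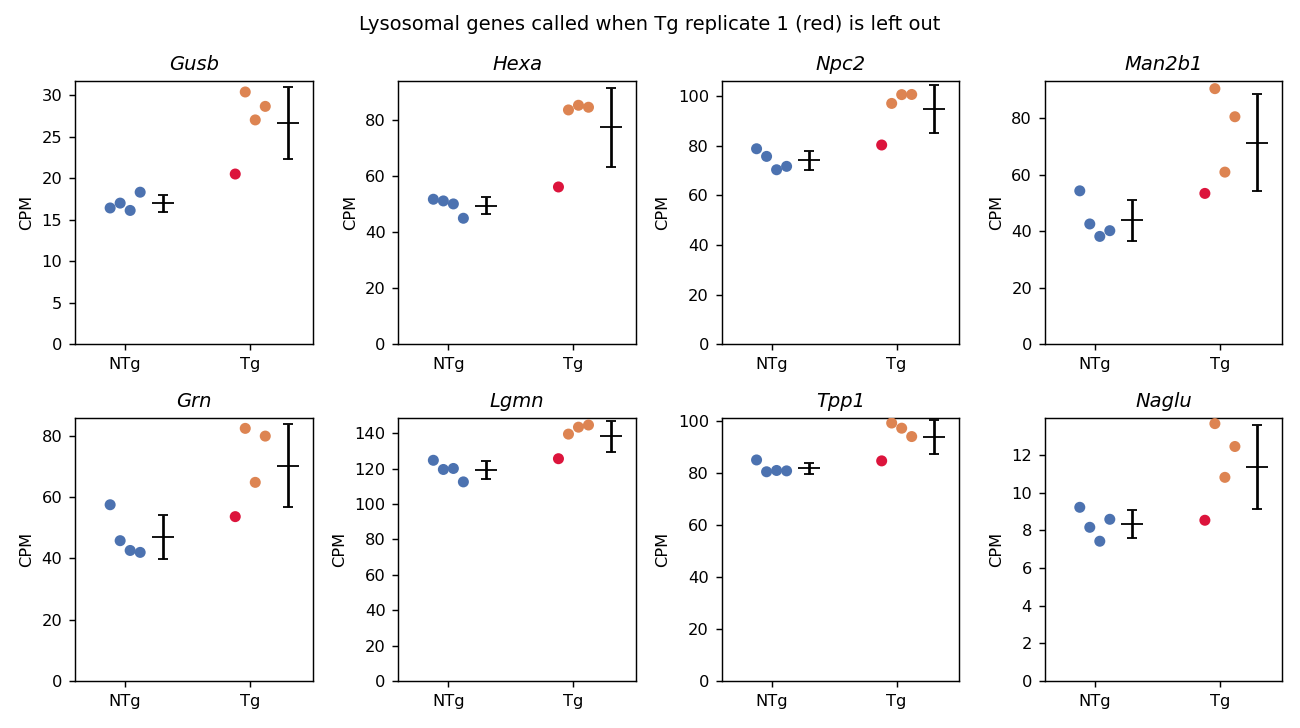
CPM (linear axis from 0) in each library for the 8 genes that edgeR called without Tg replicate 1; points are libraries, with Tg replicate 1 in red, and bars are the mean ± SD of all 4 libraries of a genotype. Tg replicate 1 is the lowest Tg library in all 8 panels, and Tg replicates 2 to 4 lie above all 4 NTg libraries in each; leaving that library out chose these genes, and over all 38 genes it is the lowest Tg library for 22.

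Among the enzymes of glycoprotein and glycogen breakdown, Man2b1 had the largest fold change of the 38 genes and the other 5 were not called; the median log2 fold change of the 6 was 0.05. Man2b1, lysosomal alpha-mannosidase, was at 54.3, 42.6, 38.1 and 40.2 CPM in NTg and 53.4, 90.4, 60.9 and 80.5 CPM in Tg. NTg replicate 1 lay above Tg replicate 1 and stood apart from the other NTg libraries, and the Tg libraries were spread more widely, relative to their level, than for the other 7 genes called without Tg replicate 1. The fold change was 1.63 (log2 0.70, SE 0.17; edgeR adjusted p = 0.195, DESeq2 adjusted p = 0.00357), and without Tg replicate 1 log2 0.82 (SE 0.15; edgeR adjusted p = 0.0339). Fuca1, alpha-fucosidase, was at 33.6, 33.2, 32.1 and 34.1 CPM in NTg and 34.2, 35.1, 35.0 and 37.5 CPM in Tg. The groups did not overlap, yet the difference was small (log2 fold change 0.09, SE 0.05, edgeR adjusted p = 0.725).

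Manba, beta-mannosidase, averaged 14.6 ± 0.354 CPM in NTg against 15.3 ± 0.264 in Tg, and Neu1, the lysosomal sialidase, 51.8 ± 2.53 and 53.2 ± 2.91 CPM (SD, n = 4). Aga, which splits the bond between sugar and asparagine, averaged 6.87 CPM in both genotypes. Gaa, the acid alpha-glucosidase that degrades glycogen, was at 240.0 to 313 CPM in NTg. In Tg it was at 354 CPM in replicate 1 and at 244 to 249 CPM in the other 3 libraries, so its log2 fold change of -0.02 (SE 0.13) became -0.17 (SE 0.08, edgeR adjusted p = 0.564) without that library.

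All 4 proteases and lipid-cleaving enzymes had the higher mean in Tg, with a median log2 fold change of 0.14, and Lgmn and Tpp1 were higher at an unadjusted edgeR p under 0.05. Lgmn, legumain or asparagine endopeptidase, was at 125, 119, 120.1 and 112 CPM in NTg and 126, 139, 143 and 145 CPM in Tg. The groups did not overlap, with Tg replicate 1 just above the highest NTg library. The fold change was 1.16 (log2 0.21, SE 0.06; edgeR adjusted p = 0.245, DESeq2 adjusted p = 0.0429), and without Tg replicate 1 log2 0.26 (SE 0.05; edgeR adjusted p = 0.0425). Tpp1, tripeptidyl peptidase, was at 84.9, 80.4, 80.9 and 80.7 CPM in NTg and 84.6, 99.1, 97.2 and 93.9 CPM in Tg, with Tg replicate 1 below NTg replicate 1. Its log2 fold change was 0.20 (SE 0.05; edgeR adjusted p = 0.289, DESeq2 adjusted p = 0.0821), and 0.24 without Tg replicate 1 (SE 0.05; edgeR adjusted p = 0.0379). Ppt1, palmitoyl-protein thioesterase, averaged 143 ± 19.6 CPM in NTg against 152 ± 19.5 in Tg, and Lipa, the acid lipase of cholesteryl esters, 25.8 ± 1.26 and 26.5 ± 2.17 CPM (SD, n = 4).

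Among membrane proteins, cholesterol export and progranulin, 7 of 8 genes had the higher mean in Tg, with a median log2 fold change of 0.12, and the genes of the soluble proteins Npc2 and Grn were the 2 called by DESeq2. Npc2, which hands cholesterol from the lumen to the membrane protein NPC1, was at 78.8, 75.7, 70.4 and 71.7 CPM in NTg and 80.3, 97.1, 101 and 101 CPM in Tg. All Tg libraries exceeded all NTg libraries, Tg replicate 1 by little. The fold change was 1.28 (log2 0.35, SE 0.08; edgeR adjusted p = 0.149, DESeq2 adjusted p = 0.00428), and without Tg replicate 1 log2 0.42 (SE 0.05; edgeR adjusted p = 0.00511). Npc1 itself averaged 66.4 ± 5.48 CPM in NTg against 64.5 ± 1.82 in Tg (SD, n = 4; edgeR adjusted p = 0.958). Grn, progranulin, a secreted protein that is cut into granulins in the lysosome, was at 57.5, 45.7, 42.6 and 41.9 CPM in NTg and 53.6, 82.4, 64.8 and 79.9 CPM in Tg. As for Man2b1, NTg replicate 1 was the highest NTg library and exceeded Tg replicate 1. The fold change of Grn was 1.49 (log2 0.58, SE 0.15; edgeR adjusted p = 0.211, DESeq2 adjusted p = 0.00847), and without Tg replicate 1 log2 0.69 (SE 0.12; edgeR adjusted p = 0.0293).

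Lamp1, an abundant glycoprotein of the lysosomal membrane, was at 315, 304, 292 and 297 CPM in NTg and 309, 317, 348 and 331 CPM in Tg. Tg replicates 2 to 4 lay above the NTg libraries by a small margin (log2 fold change 0.11, SE 0.05, edgeR adjusted p = 0.693). Lamp2, its relative, which also serves chaperone-mediated autophagy, averaged 121 ± 8.19 and 132 ± 8.04 CPM (SD, n = 4). Scarb2, the carrier of glucocerebrosidase, averaged 181 ± 7.95 CPM in NTg against 184 ± 7.85 in Tg. Cln3, the membrane protein mutated in juvenile Batten disease, averaged 13.1 ± 1.02 and 14.7 ± 0.789 CPM, and Mcoln1, a calcium-permeable channel, 57.2 ± 2.77 and 59.5 ± 4.07 CPM. None of these 5 genes passed edgeR at an unadjusted p under 0.05.

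The regulators and the enzymes that mature hydrolases differed by small amounts, with 0 of 4 at an unadjusted edgeR p under 0.05 and 0 of 4 called by edgeR or DESeq2. Tfeb was at 10.4, 10.6, 9.95 and 9.21 CPM in NTg and 10.8, 10.9, 9.58 and 11.6 CPM in Tg (a log2 fold change of 0.10, SE 0.08, edgeR adjusted p = 0.906). Tfe3 was at 34.3, 33.3, 33.0 and 29.7 CPM in NTg and 35.0, 37.6, 32.7 and 36.3 CPM in Tg (a log2 fold change of 0.12, SE 0.06, edgeR adjusted p = 0.75). Both transcription factors overlapped between the genotypes, and their RNA does not show where the proteins are in the cell, which is how they are mainly controlled. Sumf1, which activates all sulfatases, was at 25.0, 25.4, 26.1 and 27.0 CPM in NTg and 26.7, 27.6, 28.4 and 27.6 CPM in Tg, with Tg replicate 1 inside the NTg range. Gnptab, a subunit of the enzyme that starts the mannose 6-phosphate tag, was at 75.6, 79.4, 78.3 and 72.3 CPM in NTg and 71.4, 71.8, 74.5 and 70.1 CPM in Tg. Its Tg mean was the lower one, with a log2 fold change of -0.09 (SE 0.04, edgeR adjusted p = 0.736).

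Genes with and without the E-box letters had overlapping fold changes. Of the 11 genes with TCACGTG, 9 were higher in Tg and 4 at an unadjusted p under 0.05, with a median log2 fold change of 0.13 and a maximum of 0.44 (Naglu). Of the 22 genes with windows but without those letters, 20 were higher and 8 at an unadjusted p under 0.05, with a median of 0.09 and a maximum of 0.70 (Man2b1). DESeq2 called 1 of the 11, Lgmn, and 5 of the 22. Only exact matches of these letters within the windows were counted, so a site elsewhere or with other letters would be missed. The difference between the 2 sets was not tested.

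**Figure D3:**
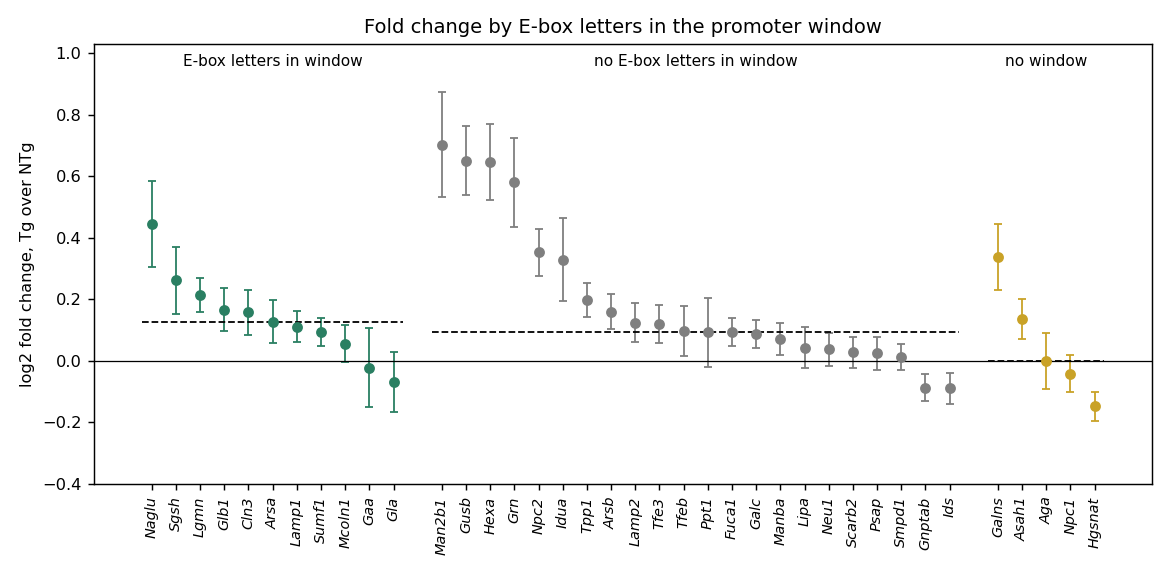
Log2 fold change of each gene (point) with its SE from edgeR (bar), for genes with E-box letters in a promoter window, genes with windows that lack them, and genes with no window; dashed lines are medians. The medians of the first 2 sets are 0.13 and 0.09, and the fold changes of the sets overlap.

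Tg replicate 1 was often the lowest Tg library and NTg replicate 1 often the highest NTg library. Over all 38 genes, Tg replicate 1 was the lowest Tg library for 22 and lay within the NTg range for 22, and NTg replicate 1 was the highest NTg library for 20. Among the 13 genes higher at an unadjusted p under 0.05, Tg replicate 1 was the lowest Tg library for 10 and lay within the NTg range for 7, and NTg replicate 1 was the highest NTg library for 10. The same counts were not made over all genes tested, so they do not show whether this order is particular to the lysosomal genes. The mean log2 CPM of all 38 genes lay 0.07 above the NTg mean in Tg replicate 1, at 0.16 to 0.20 in Tg replicates 2 to 4, and at 0.06 in NTg replicate 1, where the other NTg libraries were at -0.03 to -0.01. In the microglial markers too, NTg replicate 1 was highest in NTg, at 437 CPM, and Tg replicate 1 lowest in Tg, at 436 CPM, while the order of the other libraries differed. All 12 microglial markers were higher in Tg, 11 at an unadjusted p under 0.05, and their mean sum was 372 CPM in NTg against 625 in Tg. The 8 astrocyte markers summed to between 4134 and 4965 CPM over the NTg libraries, to 4511 CPM for Tg replicate 1 and to between 5651 and 6308 CPM for Tg replicates 2 to 4. Singly, 6 of the 8 were higher in Tg and 2 lower. At an unadjusted edgeR p under 0.05, 2 were higher and 0 lower, and the median log2 fold change was 0.09. Neuronal markers summed to 6470.3 to 6813 CPM in NTg against 5958 to 6809 in Tg, and oligodendrocyte markers to 7736 to 9564 and 6519 to 7985 CPM. The 6 choroid plexus markers were lower in Tg, all at an unadjusted edgeR p under 0.05, with sums between 307 and 569.8 CPM over the Tg libraries and between 599.6 and 911 CPM over the NTg libraries. Endothelial markers summed to between 94.2 and 144 CPM over the Tg libraries and between 138 and 170 CPM over the NTg libraries, with 3 of 6 lower at that p. Markers of border macrophages summed to between 5.96 and 11.5 CPM over the Tg libraries and between 6.85 and 10.3 CPM over the NTg libraries. No marker was at 0 in every library. The part of these cell types in the lysosomal differences was not tested.

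**Figure D4:**
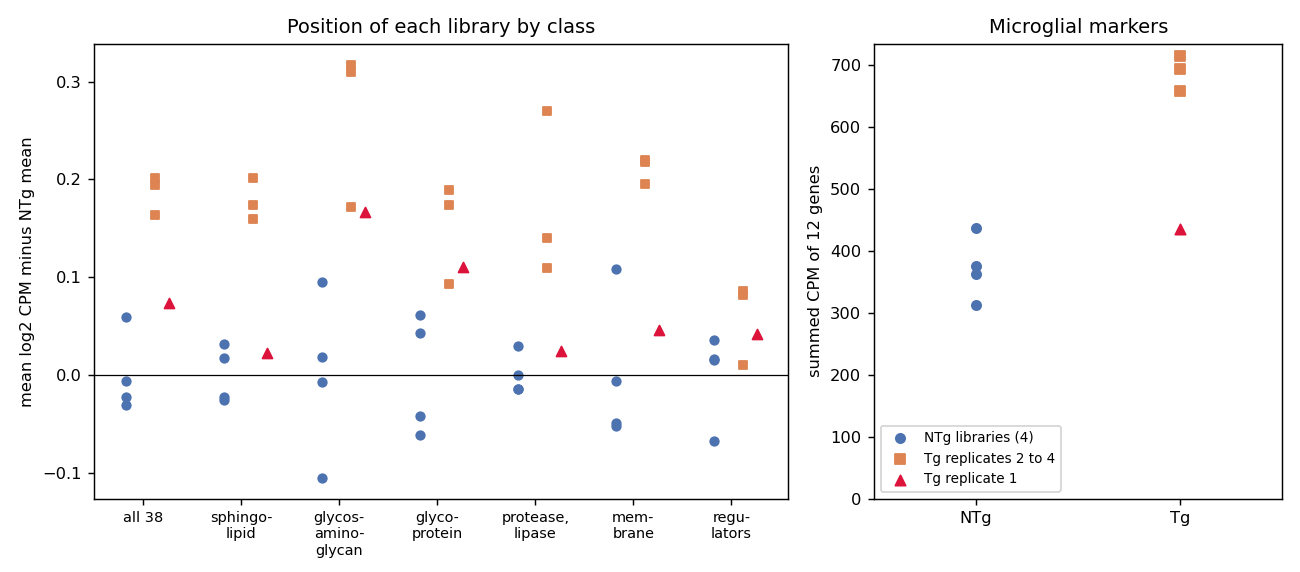
Left, the mean log2 CPM of the genes of each class in each library, minus the NTg mean; right, the summed CPM of the 12 microglial markers on a linear axis from 0. Tg replicate 1 (triangle) lies within the range of the NTg libraries (circles) in 3 of the 6 classes and, at 436 CPM, in the microglial markers, where Tg replicates 2 to 4 (squares) reach 659 to 714 CPM.

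The levels of the 38 genes spanned a wide range when set per length. In NTg, Psap had 516 CPM per kilobase of annotated exon, followed by Lamp1 at 113, Ids at 91.2, Gaa at 58.0 and Lgmn at 51.3 CPM per kilobase. The lowest were Tfeb at 1.77, Sgsh at 1.93 and Galc at 2.06 CPM per kilobase. The length counts every annotated exon base of a gene, 14879 for Galc, rather than a single transcript, so this order depends on the annotation. The 6 genes that DESeq2 called were spread over this order, with Lgmn at 51.3, Hexa at 24.8, Npc2 at 13.6, Grn at 13.5, Man2b1 at 5.46 and Gusb at 3.73 CPM per kilobase.

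Other lysosomal genes, outside the 38, were counted in the same way. Over all genes tested, 4.68% were higher and 2.68% lower at an unadjusted edgeR p under 0.05, and DESeq2 called 1.33% higher. Of 20 further hydrolases and activators tested, 10 were higher at an unadjusted edgeR p under 0.05, 0 lower, and DESeq2 called 5 higher (median log2 fold change 0.20). Those named here are Dpp7, Gm2a and Dnase2a. Dpp7, a dipeptidyl peptidase, averaged 21.3 ± 0.460 CPM in NTg against 25.6 ± 1.62 in Tg (SD, n = 4). Gm2a, the GM2 activator, averaged 64.3 against 76.7 CPM, and the nuclease Dnase2a 5.78 against 7.89 CPM. Of 30 further membrane proteins and transporters, 8 were higher and 0 lower by the same measure, DESeq2 called 5 higher, and the median was 0.05. Slc15a3, a peptide and histidine transporter, went from 3.00 ± 0.430 to 6.78 ± 1.67 CPM and Slc37a2, a sugar-phosphate transporter, from 4.94 ± 0.471 to 8.57 ± 2.07 CPM (SD, n = 4). Cd68 and Laptm5, membrane proteins abundant in phagocytes, had log2 fold changes of 1.34 (SE 0.20) and 1.05 (SE 0.18). Of 24 genes of sorting and of lysosomal nutrient signalling, 0 passed an unadjusted edgeR p under 0.05 and DESeq2 called 0 (median 0.01). Flcn, a regulator of TFE3, had the smallest p of these, at 52.2 and 56.9 CPM (edgeR adjusted p = 0.686), and Lamtor4, Igf2r and Nagpa followed.

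Cathepsins and the proton pump, which the set leaves out, gave the following counts. Beside them, 4.68% of all genes tested were higher at an unadjusted edgeR p under 0.05, and DESeq2 called 1.33% higher. Of the 12 cathepsins, the proteases of the same compartment, 8 were higher at an unadjusted edgeR p under 0.05 and DESeq2 called 7 (median log2 fold change 0.41). Of the 19 proton pump subunits, which acidify the lumen, 2 were higher by that measure and DESeq2 called 1 (median -0.02). That 1 was Atp6v0d2, at 0.218 ± 0.0802 CPM in NTg against 0.931 ± 0.529 in Tg, with 0.241 CPM in Tg replicate 1. EdgeR called 0 genes of these 5 lists after adjustment over all genes, where it called 0.0139% of all genes. Whether the lists differ from the 38 genes was not tested.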

How the data were processed

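Polyadenylated RNA was sequenced in 8 libraries, 4 per genotype. The authors deposited raw read counts per Ensembl gene; STAR, DESeq2 and GRCm39 are named, without versions, per the submitters' processing notes, and the counting tool is not given in the sources used here. Where libraries are not from separate animals, which the labels leave unsaid, p-values measure only the spread between libraries. All libraries share 1 value under batch. Symbols were matched by Ensembl identifier (52073 of 56748 genes). Genes were filtered with filterByExpr (minimum count 10, minimum total 15), normalised by TMM, and compared by the quasi-likelihood test of edgeR with Benjamini-Hochberg adjustment over all 21588 genes and a threshold of 0.05. CPM values use TMM-scaled library sizes. DESeq2, limma-voom, other scalings and filters, a replicate block, a surrogate variable and left-out libraries were alternatives. The fits, tested on simulated data, used DESeq2 1.42.0, edgeR 4.0.16, sva 3.50.0 and limma 3.58.1 in R 4.3.3. Library positions use log2 CPM with a prior count of 2. Exon lengths and overlaps came from GENCODE M21, which is on an older build, and no coordinate was carried over. The genes and lists were chosen with earlier results of these data known, and no value tests the list as a set. Values in every library are given for the 12 genes with the smallest edgeR p, the 2 with the smallest p of each class, any gene lower at an unadjusted p under 0.05, and Psap, Lamp1, Tfeb and Tfe3; up to 4 genes of the smallest p are named from each further lysosomal list. An item that this rule would name is not reported here. Gaa, Sgsh, Ids and Atp6v0d2 were singled out after their values were seen.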

Additional observations from a re-analysis of the deposited data

Results flagged for a closer look

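In 5 of the 76 groups of 4 libraries formed by 38 genes and 2 genotypes, 1 library stood far from the other 3; chance flags about 1 in 20 such groups. Hexa was at 56.1 CPM in Tg replicate 1, where the other Tg libraries had 83.5 to 85.2 CPM. Gaa was at 354 CPM in the same library, above the 244 to 249 CPM of the other Tg libraries. In NTg replicate 1, Arsa was at 38.8 CPM, where the other NTg libraries had 31.2 to 32.4 CPM, and Tpp1 at 84.9 CPM, where they had 80.4 to 80.9 CPM. Ppt1 was at 182 CPM in Tg replicate 3, where the other Tg libraries had 139.7 to 145 CPM.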

How the results depend on the processing

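Over 18 alternatives, single genes gave 684 values, of which 648 kept direction and side of the threshold, 16 became called and 20 turned sign. No gene called in any alternative turned sign. All genes called numbered 3 in the reported test, 352 with DESeq2, 12 with library quality weights, 127 with no filter on low counts, 5 with 1 surrogate variable, 1 with the replicate block, and 3 to 314 with 1 library left out, the 314 being without Tg replicate 1; 16 were called without NTg replicate 1 and 9 without Tg replicate 2. Lysosomal genes called numbered 0, but 6 with DESeq2, 2 with no filter (Hexa and Gusb) and 8 without Tg replicate 1. Leaving out any other single library gave 0. Lysosomal genes higher at an unadjusted p under 0.05 numbered 13, 20 without TMM factors, 19 with quality weights and 9 to 16 with 1 library left out. Those lower numbered 1, but 2 with quality weights or 1 surrogate variable, and 1 to 2 with 1 library left out, the 2 being without NTg replicate 4 or Tg replicate 1. The median log2 fold change ran from 0.09 to 0.13. With the replicate block, 10 genes were higher; same-numbered libraries deviated together with correlations of -0.03 to 0.16, so the numbers were not taken as pairs. The genes that turned sign had log2 fold changes near 0. Without TMM factors Aga reached 0.0227 and Gaa 0.0030, and with the stricter filter Aga reached 0.0028. With 1 library left out, Aga ran from -0.0509 to 0.0421, Gaa from -0.172 (without Tg replicate 1) to 0.0414, Npc1 from -0.0898 to 0.0048, Smpd1 from -0.0043 to 0.0324, Psap from -0.0062 to 0.0576, Scarb2 from -0.0021 to 0.0489, Ppt1 from -0.0019 to 0.173 and Lipa from -0.0161 to 0.0718. The causes were not tested. With 4 libraries a group, the smallest p an exact permutation test can give is 0.0286.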
